A study of Mus musculus with 25 samples.

Results

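The 8 genes examined here encode FOS, FOSB, FOSL1, FOSL2, JUN, JUNB, JUND and ATF3, the FOS and JUN subunits of activator protein 1 (AP-1) and a related factor. They were taken by symbol from the count tables, where all 8 were found among 24411 genes. RNA-seq had been performed on 25 samples in 9 conditions. The 21 bone marrow-derived macrophage (BMDM) samples came from C57BL/6 mice, their marrow cells having matured over 4 days in medium with M-CSF at 25 ng/ml. They form 7 groups of 3: control BMDMs, labelled as cultured for 4 h, BMDMs given 100 U/ml IFN-γ and 100 ng/ml LPS for 1, 4, 12 or 24 h (IFN-γ-primed LPS in what follows), and BMDMs given 10 ng/ml IL-4 or 10 ng/ml IL-13 for 12 h. The other 4 samples are of RAW264.7, a mouse macrophage line, with 2 control samples and 2 given 100 ng/ml LPS for 4 h without IFN-γ. The single control group of BMDMs serves every time point, so time in culture and treatment cannot be told apart at 1, 12 and 24 h, and the labels do not state how long IFN-γ was given before LPS. The labels name neither the animals nor the cultures behind the numbered samples, so the p-values measure the spread between these samples, which may in part be technical.

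FOS and JUN proteins are basic leucine zipper (bZIP) factors. They bind DNA as dimers, JUN proteins with each other or with a FOS protein and FOS proteins with a JUN partner, at AP-1 sites and, in other pairings, at cyclic AMP response elements (CRE). Several of their genes are immediate-early genes, switched on by MAP kinases and serum response factor within minutes of a signal and soon silenced again. In macrophages AP-1 acts with NF-κB at cytokine and protease genes after Toll-like receptor signals, while ATF3 is known as an inducible factor that restrains several of those genes.

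In the GENCODE M21 annotation of mm10 (GRCm38), Fos lies at chr12:85473890-85477273 and Fosl2 at chr5:32135801-32157842, both on the plus strand. Fosb lies at chr7:19302696-19310051 on the minus strand, and Fosl1 at chr19:5447547-5455946 on the plus strand. Junb (chr8:84974484-84978718, minus strand) and Jund (chr8:70698949-70700616, plus strand) share a chromosome, and Jun lies at chr4:95049034-95052222 on the minus strand. Atf3 spans chr1:191170296-191218039 on the minus strand. The counts were taken over the exons of each gene.

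Promoter windows from RefSeq (GRCm38.p6) were found for 7 of the 8 genes, Fosl1 being the one without an entry. Shown are the 150 bases before the start of Fos, Fosb, Jun and Junb, whose RefSeq start lay within 30 bases of the GENCODE M21 gene start. All are written 5′ to 3′ on the strand of the gene, with capitals marking the CRE core TGACG on either strand or the JUN site TGACATCA.
Fos, chr12:85473740-85473889, plus strand: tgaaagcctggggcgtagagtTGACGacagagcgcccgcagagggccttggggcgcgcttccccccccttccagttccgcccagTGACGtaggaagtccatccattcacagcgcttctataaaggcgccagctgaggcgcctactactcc
Fosb, chr7:19310046-19310195, minus strand: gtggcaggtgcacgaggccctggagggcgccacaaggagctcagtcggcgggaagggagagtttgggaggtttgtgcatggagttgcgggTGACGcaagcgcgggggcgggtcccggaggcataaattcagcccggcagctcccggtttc
Jun, chr4:95052223-95052372, minus strand: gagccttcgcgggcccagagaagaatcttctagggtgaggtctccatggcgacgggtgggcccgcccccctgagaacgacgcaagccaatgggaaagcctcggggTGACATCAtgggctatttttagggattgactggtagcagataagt
Junb, chr8:84978749-84978898, minus strand: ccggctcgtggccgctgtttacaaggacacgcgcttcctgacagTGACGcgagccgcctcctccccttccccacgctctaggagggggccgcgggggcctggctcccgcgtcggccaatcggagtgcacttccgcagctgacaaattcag
In the 250 bases before the start, searched on both strands, Fos held the CRE core at 2 positions, beginning 129 and 66 bases before the start. Fosb held it once, 60 bases before the start, and Junb once, 106 bases before it. Atf3, whose window is not printed, held it once on the opposite strand, 7 bases before its RefSeq start. Jun held TGACATCA 45 bases before its start. Of all 32817 promoter windows in the table, 17.7% held TGACG and 2.93% held TGACATCA. The AP-1 site TGACTCA (4.46% of windows) and the full CRE TGACGTCA (1.55% of windows) were not among the letters of any of the 7 windows. κB sites, found in 3.9% of windows, occurred in those of Fos, Fosb and Fosl2. The CRE core lies within the full CRE, so those searches overlap. These matches describe letters only.

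Counts on the sense strand of genes summed to 2378639 to 3357300 per sample (median 2718848). The ribosomal precursor Rn45s took 20.1% to 39.8% of them and was left out, which left 1502618 to 2532496 counts. Levels are given as TMM-normalized CPM (counts of a gene relative to the library total), and 1 count is worth 0.395 to 0.666 CPM before TMM scaling. At this depth Fos had 555 counts over all 25 samples, Fosb 31 and Fosl1 198, against 32666 for Junb and 12255 for Atf3. Of 9 macrophage markers, 8 were in the tables and all 8 were detected in BMDMs, while Mertk was at 0 in RAW264.7. The 5 stromal markers summed to 79.3 to 117 CPM in control BMDMs, 47.3 to 83.7 CPM with IFN-γ-primed LPS and 57.9 to 109 CPM with IL-4 or IL-13, and all 5 were at 0 in RAW264.7. The 5 granulocyte markers found summed to 9.53 to 18.6 CPM in control BMDMs and 20.2 to 36.2 CPM with IFN-γ-primed LPS. Markers of B and T cells stayed under 1 CPM in sum, and erythroid markers were at 0. All these marker sums are CPM before TMM scaling. The TMM factors were 1.09 to 1.11 in control BMDMs and 0.717 to 0.751 at 4 h of IFN-γ-primed LPS. Dividing by them lowers the control sums and raises those at 4 h, so the stromal difference depends on the scaling. Antisense reads on Rn45s were 0.0386% to 0.122% of its reads in control and at 1, 4 and 12 h but 0.00603% to 0.0214% at 24 h and with IL-4 or IL-13, so these libraries stand apart in that measure. In comparisons across these sets of libraries, treatment and this difference cannot be told apart. The part of this difference and of other cell types in the values below was not tested, and in bulk RNA fewer cells of a type and less RNA per cell cannot be told apart.

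**Figure D1:**
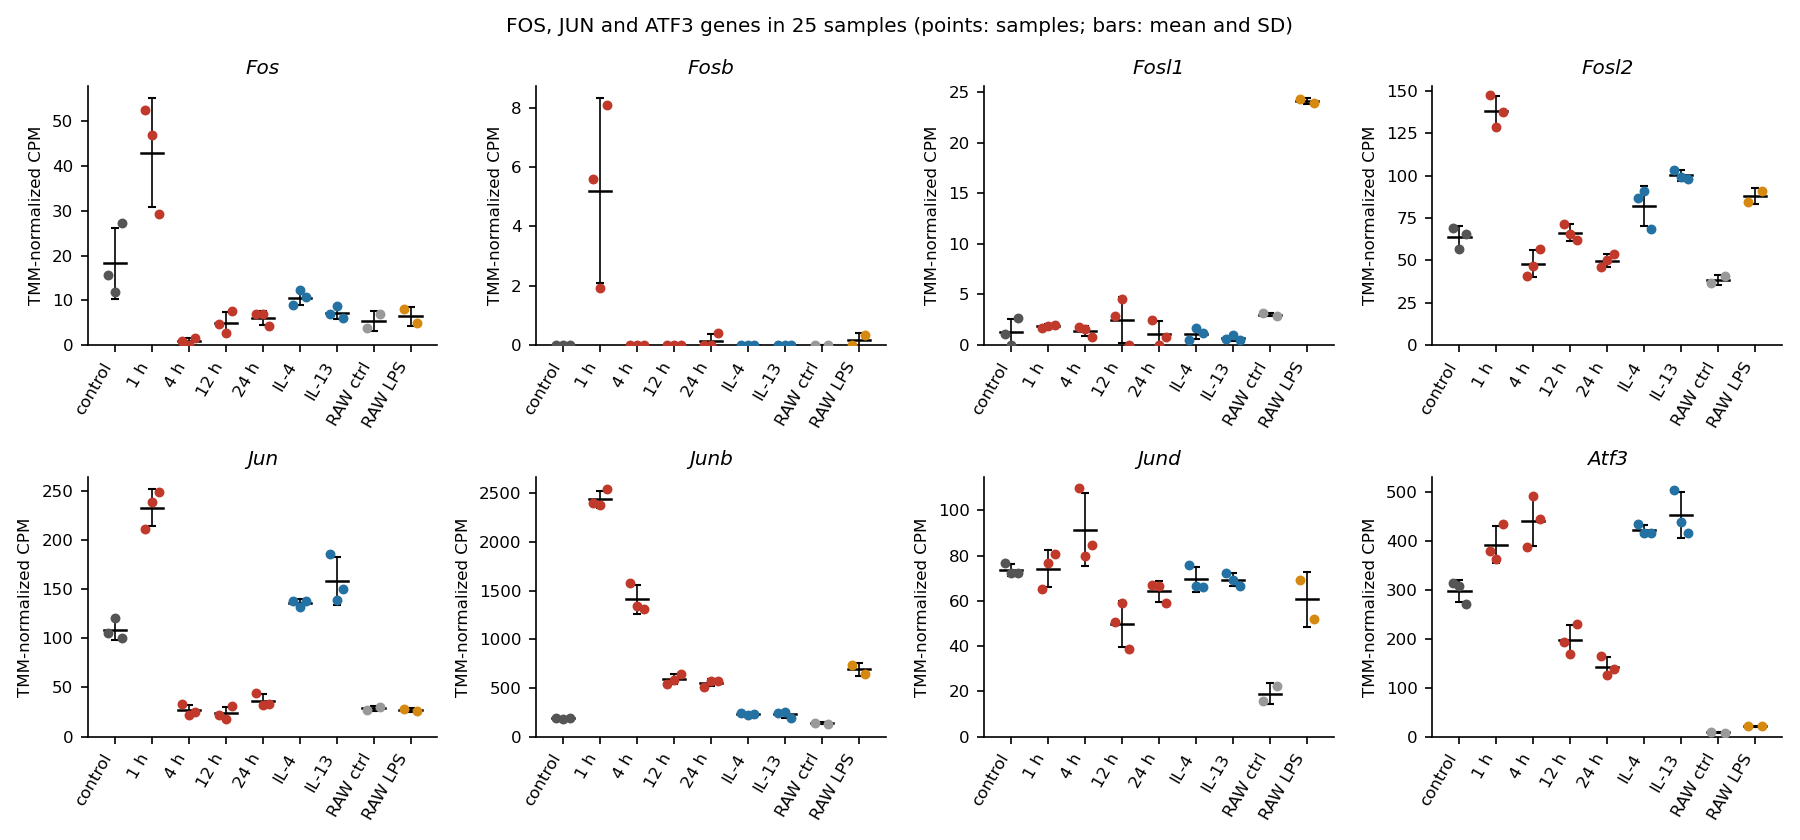
Level of each gene (vertical axes, TMM-normalized CPM, each starting at 0) in 9 conditions (horizontal axes): control BMDMs, IFN-γ-primed LPS for 1 to 24 h (red), IL-4 and IL-13 for 12 h (blue), and RAW264.7 control and LPS. Points are samples and bars the mean with the SD. Junb is highest at 1 h (2375 to 2541 CPM), Fosb is above 1 CPM at 1 h alone, and Fosl1 is above 5 CPM in RAW264.7 with LPS alone.

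To follow AP-1 through the time course, each time point was tested against control with edgeR's quasi-likelihood test. A gene was called at a Benjamini-Hochberg adjusted p (FDR) of 0.01 or less if its log2 fold change was 1 or more, up or down. At 1 h, 4 of the 6 genes with enough counts to be tested rose (Fos, Fosl2, Jun and Junb) and none fell, whereas 7.46% of all 9568 genes tested rose and 4.84% fell. Scaled by library size alone, which moved the median log2 fold change of all genes at 1 h from -0.03 to -0.22, Junb stayed called and Fos (1.00), Fosl2 (0.89) and Jun (0.88) lay just under the fold cutoff. At 4 h, Junb rose and Fos and Jun fell, against 16.1% and 17.7% of all genes. At 12 h the same was called, Junb higher and Fos and Jun lower, against 13.3% and 14.1%. At 24 h, Junb was higher and Fos, Jun and Atf3 were lower, against 12.2% and 11.9%. Fosb and Fosl1 had too few counts for the test in every BMDM comparison.

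Among the JUN genes, Junb carried the largest change. JUNB is a JUN subunit that is a weaker activator than JUN on many single AP-1 sites and can compete with it. In the control samples Junb stood at 196, 181 and 192 CPM. At 1 h it stood at 2398, 2375 and 2541 CPM, and no stimulated sample overlapped a control. The change was 12.6-fold, a log2 fold change of 3.65 (SE 0.0975, adjusted p = 1.93e-33). At 4 h the samples were at 1579, 1339 and 1311 CPM, still 7.15-fold above control (log2 2.84, SE 0.0959, adjusted p = 9.77e-30). The difference from 1 to 4 h was -0.82 on the log2 scale (SE 0.0858, adjusted p = 2.44e-11), under the fold cutoff, though with library size alone it was called at -1.15. The level then fell from 4 to 12 h by 1.25 on the log2 scale (SE 0.0886, adjusted p = 1.42e-16) to 543, 579 and 642 CPM. At 24 h it was at 509, 573 and 576 CPM, which overlapped the samples at 12 h and lay 2.91-fold above control (log2 1.54, SE 0.0941, adjusted p = 2.12e-19).

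Jun, the gene of the strongly activating JUN subunit, moved up and then down. Control samples were at 105, 120 and 99.9 CPM and the samples at 1 h at 211, 238 and 248 CPM, all above every control, a log2 fold change of 1.07 (SE 0.118, adjusted p = 1.54e-10). At 4 h the samples were at 32.8, 21.8 and 25.4 CPM, all below every control. Jun was thus 4.26-fold lower than control at 4 h (log2 -2.09, SE 0.170, adjusted p = 3.92e-15) and 8.93-fold lower than at 1 h. It stayed low at 12 h, at 21.9, 18.2 and 30.6 CPM (log2 -2.24 against control, SE 0.161, adjusted p = 7.00e-17). At 24 h it was at 44.5, 32.3 and 32.9 CPM, a log2 fold change of -1.58 (SE 0.142, adjusted p = 1.61e-13). From 12 to 24 h the log2 difference of 0.66 passed the FDR (adjusted p = 0.00664) but not the fold cutoff.

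Jund, which encodes the JUN subunit that most cells hold without stimulation, was not called at any time point. Its 3 control samples were at 76.7, 72.2 and 72.2 CPM, and those at 1 h at 65.5, 76.6 and 80.9 CPM, on both sides of the controls. At 4 h the log2 fold change was 0.25 (SE 0.140, adjusted p = 0.120) and its sign turned to -0.28 when only library size was used for scaling. At 12 h the samples were at 50.8, 59.2 and 38.9 CPM, all below every control, a log2 fold change of -0.62 (SE 0.146, adjusted p = 3.06e-04) that did not reach the fold cutoff. Of all 8 genes, Jund had the largest share of reads on the opposite strand, with 204 antisense against 2993 sense counts.

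The make-up of the JUN family therefore differed between conditions. Levels per kilobase of exon allow genes to be set side by side, provided the GENCODE M21 exon lengths match the gene models behind the counts. Those models are not known. The RefSeq start lies 1210 bases from the GENCODE start for Jund and 34706 bases for Atf3. The shares and the order of genes per kilobase therefore depend on the lengths used. In control BMDMs Junb made up 57.2% ± 1.8 (SD, n = 3) of the JUN family per kilobase, Jund 24.1% ± 0.37 and Jun 18.6% ± 2.0. At 1 h Junb made up 92.0% ± 0.56 and Jun 4.98% ± 0.30. At 4 h Junb made up 92.5% (92.0% to 93.1% over the 3 samples), Jund 6.48% and Jun 0.986%. The ratio of Junb to Jun counts within a sample needs no scaling between samples. In control samples it lay between 1.5 and 1.92. With IFN-γ-primed LPS it lay between 9.97 and 11.3 after 1 h, 48.2 and 61.5 after 4 h, 21 and 31.8 after 12 h, and 11.5 and 17.7 after 24 h. None of the stimulated groups overlapped the control. Each had p = 0.1 against control in a two-sided exact permutation test, the smallest p that 3 samples against 3 allow.

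**Figure D2:**
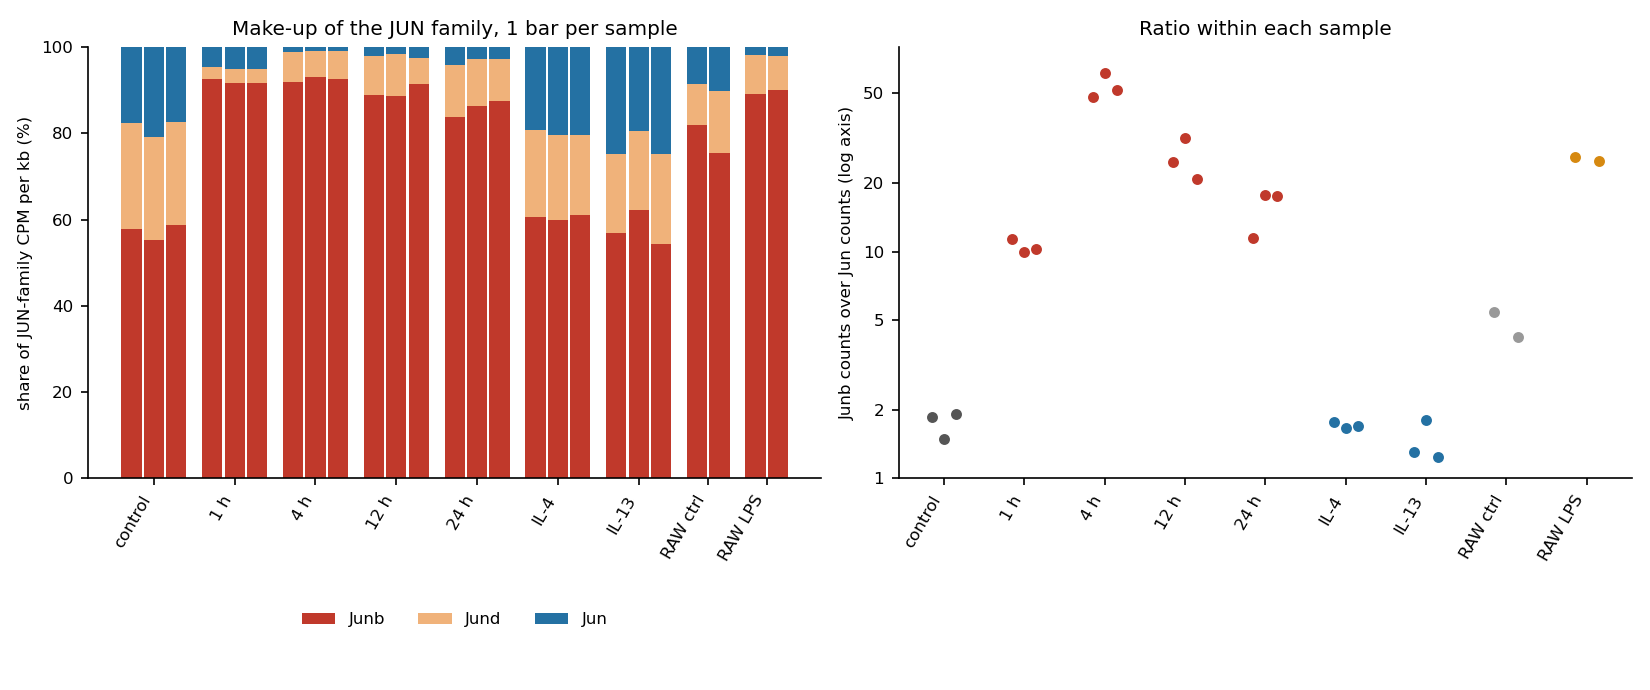
Left, share of Junb, Jund and Jun in the summed JUN-family level per kilobase of exon (percent), with 1 bar per sample in 9 conditions. Right, Junb counts divided by Jun counts in each sample, on a log axis. The ratio lies between 1.25 and 1.92 in control, IL-4 and IL-13 samples and peaks at 48.2 to 61.5 with IFN-γ-primed LPS for 4 h.

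Of the FOS genes, Fos encodes the founding member, a short-lived protein with a strong activation domain. Its control samples spread widely, at 15.6, 11.9 and 27.3 CPM. At 1 h the samples were at 52.6, 47.0 and 29.3 CPM, all above every control although the lowest exceeded the highest control by little. Before TMM scaling they overlapped, the lowest at 1 h being at 27.6 CPM and the highest control at 29.7 CPM. Fos rose 2.27-fold (log2 1.19, SE 0.244, adjusted p = 2.10e-04), a call that was lost without the second control sample (log2 0.96). At 4 h the samples were at 0.886, 0 and 1.64 CPM, resting on 3 counts in all against 102 in the controls. Fos was called lower (log2 -4.41, SE 0.621, adjusted p = 2.33e-07), and the summed level in control was 22.2 times that at 4 h with an exact 95% counting interval of 7.37 to 109. Without the second or the third sample at 4 h the log2 value was -3.80 or -5.28. Against 1 h, with 225 counts, it fell by 5.59 on the log2 scale (SE 0.517, adjusted p = 4.93e-11), a ratio of 51.3 with an interval of 17.3 to 250, and without the second or the third sample at 4 h the log2 value was -4.998 or -6.48. At 12 h it was at 4.62, 2.60 and 7.65 CPM, below every control (log2 -1.89, SE 0.378, adjusted p = 6.76e-05). At 24 h it was at 6.84, 6.96 and 4.21 CPM (log2 -1.62, SE 0.342, adjusted p = 1.45e-04). The difference from 4 to 12 h was not called (log2 2.51, SE 0.849, adjusted p = 0.0152), though it was in several alternatives, and it ran from 1.91 without the second to 3.39 without the third sample at 4 h.

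Fosl2, whose protein FRA-2 lacks the strong activation domain of FOS, had higher levels than Fos in raw CPM but also a longer transcript. Control samples were at 69.2, 56.4 and 65.7 CPM and the samples at 1 h at 147, 129 and 138 CPM, with no overlap, a log2 fold change of 1.08 (SE 0.121, adjusted p = 2.37e-10). It fell from 1 to 4 h by 1.54 on the log2 scale (SE 0.136, adjusted p = 1.15e-13) to 40.7, 46.6 and 56.6 CPM. Against control the log2 fold change at 4 h was -0.46 (adjusted p = 0.00641), under the fold cutoff and with 1 sample inside the control range. Per kilobase Fosl2 and Fos were close in control, at 9.76 ± 1.0 and 8.66 ± 3.8 CPM per kb (SD, n = 3), and at 1 h, at 21.1 and 20.4 CPM per kb. At 4 h Fosl2 made up 86.4% (82.0% to 89.5%) of the FOS family per kilobase and Fos 4.47% (0% to 7.88%).

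Fosb, the gene of a further activating FOS protein, had counts at 1 h and hardly elsewhere. No control sample had a count, whereas the samples at 1 h were at 5.6, 1.93 and 8.09 CPM, from 29 counts with an exact 95% Poisson interval of 19.4 to 41.7. Without the filter on low counts Fosb was called higher at 1 h (adjusted p = 5.90e-07) and lower from 1 to 4 h (adjusted p = 1.41e-05). Its summed level at 1 h was 10.1 times that of 3 counts over the control group, a ratio that leaves out the counting error of the 29 counts. The exact permutation p was 0.1, the smallest possible. Fosb was at 0 in every sample at 4 and 12 h, and 1 count was seen at 24 h. Fosl1, which encodes FRA-1, had 7 counts in the control group and 5 to 12 at the time points, where a difference was not detectable at this depth. The summed JUN family exceeded the summed FOS family in every condition. The FOS sum was 0.104 ± 0.028 times the JUN sum per kilobase in control (SD, n = 3), 0.0301 at 1 h and 0.0102 at 4 h, with no overlap of samples between control and either time.

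Atf3 encodes a bZIP factor related to the CREB group, best known as stress-inducible. With the GENCODE M21 exon lengths it was the highest of the 8 genes per kilobase in control BMDMs. Its level was 150 ± 12 CPM per kb against 105 ± 4.3 for Junb (SD, n = 3), with no overlap of samples. Control samples were at 313, 308 and 270 CPM. The stimulated samples were at 379, 362 and 434 CPM at 1 h and at 388, 490 and 444 CPM at 4 h, above every control both times. The log2 fold changes of 0.37 (SE 0.106, adjusted p = 0.00513) and 0.51 (SE 0.108, adjusted p = 6.39e-05) stayed under the fold cutoff, and the latter became -0.02 when only library size was used for scaling. From 4 to 12 h Atf3 fell by 1.16 on the log2 scale (SE 0.112, adjusted p = 5.80e-12) to 193, 168 and 229 CPM. At 24 h the samples were at 165, 126 and 137 CPM, below every control (log2 -1.06, SE 0.112, adjusted p = 3.51e-11), and without the second sample at 24 h the value was -0.97, under the cutoff. Between the steps, 3 of 6 genes fell from 1 to 4 h (Fos, Fosl2 and Jun, against 11.8% of all genes) and none rose (11.4%). From 4 to 12 h 2 fell (Junb and Atf3, against 9.18%) and none rose (9.33%), where an unadjusted p under 0.05 was seen for 5 of 6 genes in either direction. From 12 to 24 h none was called by edgeR or DESeq2 (1.43% of all genes rose and 2.37% fell). An unadjusted p under 0.05 was seen for 4 of 6. The share of all genes at that unadjusted threshold was not counted in any comparison.

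**Figure D3:**
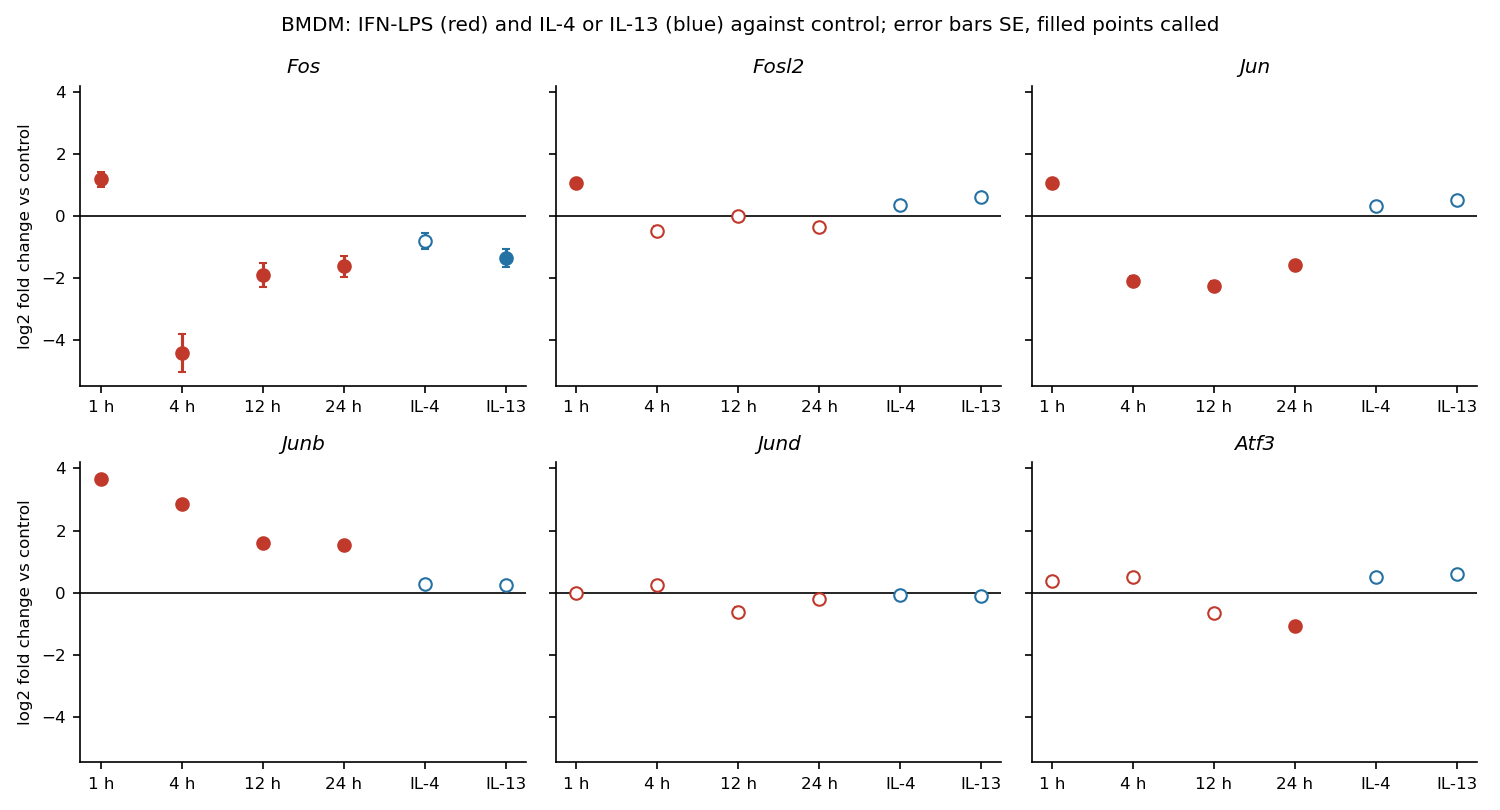
Log2 fold change against control BMDMs (vertical axes) for the 6 genes tested, at 1, 4, 12 and 24 h of IFN-γ-primed LPS (red) and 12 h of IL-4 or IL-13 (blue). Error bars are standard errors, smaller than the points for most values, and filled points passed both cutoffs. Junb is above 0 at all 4 times (3.65 to 1.54), and Jun and Fos are above 0 at 1 h and below it afterwards.

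IL-4 and IL-13 drive the alternative (M2) state of macrophages through STAT6. For them the fold cutoff was 0.7 on the log2 scale. With IL-4 none of the 6 genes tested was called by edgeR or DESeq2, against 2.22% of all 9252 genes higher and 1.64% lower. An unadjusted p under 0.05 was seen for 5 of 6, with no share of all genes counted at that threshold. With IL-13 Fos fell and no gene rose, against 2.38% lower and 2.98% higher. Fos stood at 6.90, 8.69 and 6.07 CPM with IL-13, below every control (log2 -1.35, SE 0.287, adjusted p = 3.44e-04). Without the third control sample, the highest of the 3, the value was -0.94 (adjusted p = 0.0394). With IL-4 Fos stood at 8.90, 12.2 and 10.7 CPM, of which 1 lay inside the control range (log2 -0.80, SE 0.267, adjusted p = 0.0378).

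The other genes differed little from control with these cytokines. Atf3 stood at 433, 416 and 416 CPM with IL-4 and 504, 438 and 415 CPM with IL-13, all above every control. Its log2 fold changes of 0.49 (SE 0.0881, adjusted p = 3.04e-05) and 0.58 (SE 0.0876, adjusted p = 6.43e-07) passed the FDR but not the fold cutoff. The same held with IL-13 for Fosl2, at 104, 99.2 and 97.7 CPM (log2 0.63, SE 0.123, adjusted p = 9.82e-05), and for Jun, at 186, 139 and 150 CPM (log2 0.52, SE 0.109, adjusted p = 2.77e-04). Jund and Junb did not pass the FDR with either cytokine. Between IL-13 and IL-4 none of the 6 genes was called by edgeR or DESeq2, where 0.054% of all genes were higher and 0.0108% lower. An unadjusted p under 0.05 was seen for 1 of 6, again with no share of all genes counted. The ratio of Junb to Jun counts lay between 1.67 and 1.78 under IL-4 and between 1.25 and 1.81 under IL-13, overlapping the controls (exact permutation p = 0.9 and 0.2).

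At 12 h the IFN-γ-primed LPS state could be set against the IL-4 and IL-13 states at a matched time. The libraries differ in antisense Rn45s reads, at 0.0827% to 0.122% with IFN-γ-primed LPS and 0.00603% to 0.0214% with the cytokines. Treatment and this library difference cannot be told apart here. Jun and Atf3 were lower and Junb was higher than with either cytokine. Of all 9380 genes, 13.0% were higher and 12.4% lower against IL-4, and 12.8% and 12.5% against IL-13. Jun stood at 18.2 to 30.6 CPM with IFN-γ-primed LPS, 132 to 138 CPM with IL-4 and 139 to 186 CPM with IL-13, log2 differences of -2.51 (SE 0.162, adjusted p = 8.12e-16) and -2.72 (SE 0.159, adjusted p = 5.01e-17). Junb stood at 543 to 642 CPM against 220 to 246 CPM and 187 to 252 CPM, log2 differences of 1.33 (SE 0.110) and 1.38 (SE 0.110). Atf3 stood at 168 to 229 CPM against 416 to 433 CPM and 415 to 504 CPM, log2 differences of -1.09 (SE 0.112) and -1.19 (SE 0.112). None of these 3 genes overlapped between the states, which adds little, since they were called on the same samples. With library size alone the Junb differences were 0.98 and 0.99, under the cutoff, Fos was called lower against IL-4 (log2 -1.41, adjusted p = 9.31e-04; -1.06 and adjusted p = 0.0131 with TMM), and without the second sample at 12 h the Atf3 difference from IL-4 was -0.99.

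In RAW264.7 cells LPS alone for 4 h raised 5 of the 7 genes tested, Fosl1, Fosl2, Junb, Jund and Atf3, and lowered none. Of all 9406 genes, 5.82% rose and 5.25% fell. Fosl1 stood at 3.12 and 2.90 CPM in control and 24.3 and 23.9 CPM with LPS, a log2 fold change of 3.02 (SE 0.316, adjusted p = 3.80e-20). Fosl1 is uncertain, since 198 sense counts over all samples stand beside 46 counts when strand is ignored. Without strand it had 2 and 2 counts in control and 16 and 11 with LPS, and was not tested. Junb stood at 144 and 128 CPM in control and 738 and 642 CPM with LPS (log2 2.38, SE 0.0803, adjusted p = 1.05e-185). Jund stood at 15.6 and 22.5 CPM and then 69.3 and 52.0 CPM (log2 1.70, SE 0.168, adjusted p = 9.86e-23). Fosl2 stood at 36.4 and 40.6 CPM and then 84.4 and 91.1 CPM (log2 1.23, SE 0.135, adjusted p = 1.94e-18). Atf3 stood at 9.37 and 7.97 CPM and then 20.7 and 22.2 CPM (log2 1.34, SE 0.254, adjusted p = 1.14e-06).

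In all 5, both treated samples lay above both controls, which adds little to calls made on the same samples. Fos stood at 3.82 and 6.88 CPM in control and 7.96 and 4.85 CPM with LPS (log2 0.28, SE 0.378, adjusted p = 0.597), and Jun at 26.7 and 30.4 CPM and then 28.3 and 25.7 CPM (log2 -0.05, SE 0.180, adjusted p = 0.873), both with overlapping samples. With 2 residual degrees of freedom this fit gave all genes nearly 1 shared spread, so its p-values are small, and in a fit of all 25 samples the adjusted p of the 5 genes ran from 7.38e-28 for Junb to 2.60e-05 for Atf3. The ratio of Junb to Jun counts was 4.2 to 5.4 in control and 25.1 to 26.1 with LPS.

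Unstimulated RAW264.7 cells had lower levels of 4 of 7 genes than control BMDMs, Fos, Jun, Jund and Atf3, and higher levels of none, where 24.9% of all 10269 genes were lower and 22.7% higher. Atf3 differed most, at 7.97 and 9.37 CPM against 270 to 313 CPM, 34.7-fold lower (log2 -5.12, SE 0.161, adjusted p = 2.42e-67). Jund was 3.95-fold and Jun 3.87-fold lower, with log2 differences of -1.98 (SE 0.170, adjusted p = 8.20e-22) and -1.95 (SE 0.146, adjusted p = 1.57e-26). The log2 difference of Fos was -1.80 (SE 0.320, adjusted p = 2.79e-07). The cell line and the primary cells differ also in medium, and the 5 stromal markers were at 0 in RAW264.7.

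The 4 h responses of RAW264.7 and BMDMs were compared by the difference between them in a fit of the 10 samples concerned. The RAW264.7 cells received LPS and the BMDMs IFN-γ with LPS, so cell source and IFN-γ cannot be told apart. The response was higher in RAW264.7 for 4 of 7 genes, where 8.77% of all genes were higher and 11.4% lower. For Fos the difference was 4.62 on the log2 scale (SE 0.746, adjusted p = 8.20e-08), for Jun 1.96 (SE 0.255, adjusted p = 2.78e-11), for Fosl2 1.61 (SE 0.211, adjusted p = 3.50e-11) and for Jund 1.37 (SE 0.227, adjusted p = 1.19e-07). The Fos difference rests on the 3 counts at 4 h in BMDMs and ran from 4.03 without the second to 5.53 without the third of those samples. For Junb the difference was -0.54 (SE 0.138, adjusted p = 5.92e-04), under the fold cutoff, and with library size alone it was -0.11 (adjusted p = 0.529). Those of Fosl1 (log2 2.86, SE 0.969, adjusted p = 0.0130) and Atf3 (log2 0.74, SE 0.263, adjusted p = 0.0186) did not pass the FDR, though with library size alone both were called, at 3.27 and 1.18. Without the third BMDM control the Fosl1 difference was 1.72, not called, and without the second it was 3.42 and called.

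**Figure D4:**
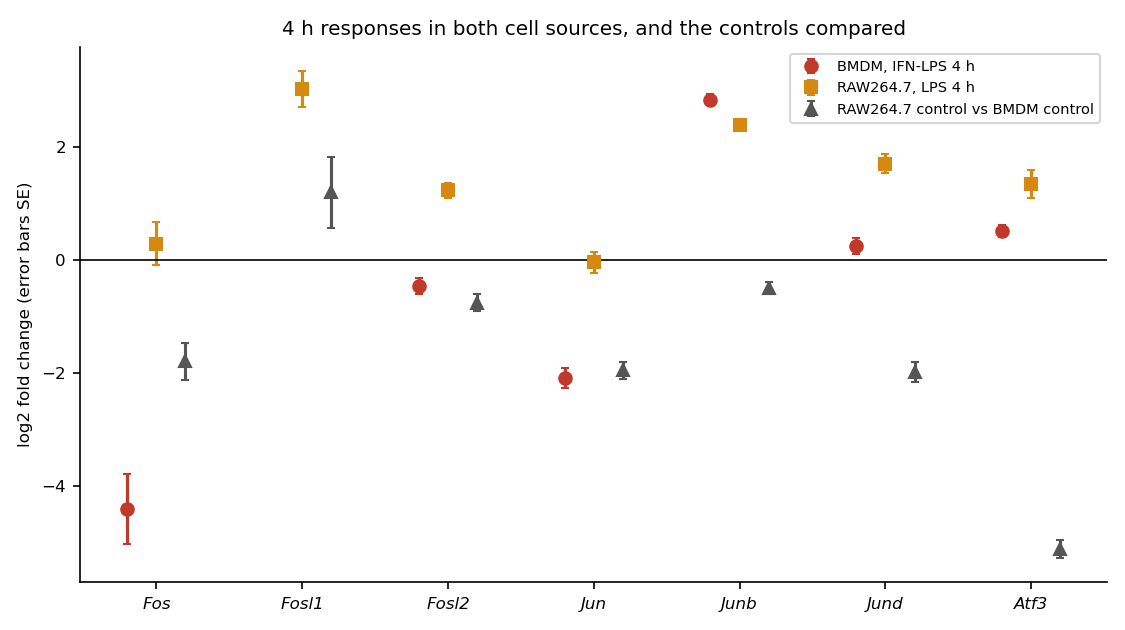
Log2 fold change (vertical axis, error bars standard errors) at 4 h in BMDMs with IFN-γ-primed LPS (circles), in RAW264.7 with LPS (squares) and between the 2 control groups (triangles) for 7 genes. No circle is drawn for Fosl1, which was not tested in BMDMs. Junb is above 0 in both responses (2.84 and 2.38), and Fos and Fosl2 are below 0 in BMDMs (-4.41 and -0.46) and above it in RAW264.7 (0.28 and 1.23). Jun is below 0 in BMDMs (-2.09) and near 0 in RAW264.7 (-0.05).

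Other genes of the pathway were counted from lists chosen by what the genes do, with earlier results of these data known. All list counts that follow are therefore descriptions and not independent tests. Of 18 tested bZIP partners and relatives, 4 rose and 1 fell at 1 h with a median log2 fold change of 0.26, beside -0.03 over all genes, of which 7.46% rose and 4.84% fell. At 4 h 6 rose and 2 fell (median 0.38, beside -0.07), against 16.1% and 17.7% of all genes. At 24 h 7 rose and 1 fell, against 12.2% and 11.9%, and in RAW264.7 4 of 17 rose and none fell, against 5.82% and 5.25%. The gene of the small MAF protein MAFF, which has no activation domain, went from 2.87 ± 1.1 CPM in control to 204 ± 17 CPM at 1 h (log2 6.09, SE 0.211, adjusted p = 9.11e-29). BATF proteins pair with JUN proteins and work with IRF factors. Batf2 went from 1.25 ± 0.61 to 198 ± 9.0 CPM at 4 h (log2 7.17, SE 0.252) and Batf from 1.79 ± 0.81 to 87.2 ± 2.6 CPM at 24 h (log2 5.54, SE 0.247). Batf3 rose instead with IL-13, from 1.08 to 19.2 ± 2.5 CPM (log2 4.06, SE 0.416), and with IL-4 (log2 3.31, SE 0.472), where 5 of the 17 genes tested rose under each cytokine, against 2.22% of all genes with IL-4 and 2.98% with IL-13 (SD, n = 3 in each group).

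Of 16 tested immediate-early genes and regulators of Fos, 10 rose and none fell at 1 h, with a median log2 fold change of 3.31, where 7.46% of all genes rose and 4.84% fell. From 1 to 4 h 10 fell and none rose (median -2.19), against 11.8% and 11.4%. Egr1, a zinc finger factor controlled by serum response factor, went from 5.39 CPM to 292 ± 4.3 CPM at 1 h (log2 5.71, SE 0.165, adjusted p = 5.11e-32). Dusp1, the phosphatase that switches off p38 and JNK, went from 49.8 CPM to 2358 ± 75 CPM (log2 5.53, SE 0.160). Egr3 reached 8.25 ± 2.3 CPM at 1 h from 0.359 CPM. Egr2 fell from 20.8 CPM in control to 0.801 ± 0.60 CPM at 24 h (log2 -4.63, SE 0.403). In RAW264.7 at 4 h 5 of 14 rose and 1 fell, against 5.82% and 5.25% of all genes, with a median of 0.78 beside 0.00.

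The MAP kinases lie upstream of AP-1. Of 18 tested genes of the cascade, 2 rose and none fell at 1 h (median 0.15), where 7.46% of all genes rose and 4.84% fell. At 4 h 5 rose and 2 fell (median 0.14), against 16.1% and 17.7% of all genes. Mapkapk2, a kinase below p38, rose at 4 h from 197 to 1983 ± 96 CPM (log2 3.27, SE 0.0979), and Map3k8, the TPL2 kinase above ERK, from 37.5 to 192 ± 6.6 CPM (log2 2.30, SE 0.126). Map3k1 fell at 4 h from 72.6 to 8.35 ± 4.2 CPM (log2 -3.18, SE 0.248), and Map2k1 rose at 12 h from 128 to 511 ± 56 CPM (log2 1.95, SE 0.0978).

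Genes known as AP-1 or ATF3 targets in macrophages were counted in the same way. Of 19 tested, 10 rose and 1 fell at 1 h (median 1.31), where 7.46% of all genes rose and 4.84% fell. At 4 h 12 rose and 4 fell (median 2.67), against 16.1% and 17.7%, and at 24 h 11 rose and 5 fell (median 1.89), against 12.2% and 11.9%. In RAW264.7 11 of 14 rose and none fell (median 4.2), against 5.82% and 5.25%. Il12b stood at 0.359 CPM in control and 5240 ± 1470 CPM at 12 h, and Il6 was listed at 0 in control and at 686 ± 44 CPM at 4 h. Tnf went from 28.1 CPM to 10950 ± 524 CPM at 4 h (log2 8.54, SE 0.126), and Il1b in RAW264.7 from 0.528 to 2289 ± 30 CPM at 4 h (n = 2). With IL-4 2 of 15 rose and 1 fell, against 2.22% and 1.64% of all genes, and with IL-13 3 rose and 3 fell, against 2.98% and 2.38%.

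For each member the genes whose mean log2 CPM over the 9 conditions were most alike were found among 10564 genes, by Pearson's r over 9 points that share libraries and the control, as a description. Junb was most like Dusp2 (r = 0.978), Csrnp1 (0.975) and Mir221 (0.970). Jun was most like 0610040J01Rik (r = 0.984), Ski (0.974) and Egr2 (0.974), and Fos like Thap6 (0.974), Bbs10 (0.931) and Fbxo33 (0.930). Fosl2 was most like Ccr1 (r = 0.934), Myc (0.933) and Vdr (0.871), and Fosb like Areg (0.976), Spry1 (0.975) and Klf2 (0.964). Fosl1 was most like Bcl6b (r = 0.988), Fbxo15 (0.983) and Slc26a9 (0.976), and Jund like Nudt8 (0.941), Zyx (0.929) and Arhgap22 (0.918). Fosl1 had a mean of 24.1 CPM in RAW264.7 with LPS and 3.01 CPM or less elsewhere. Fosb had 5.21 CPM at 1 h and 0.173 CPM or less elsewhere. The r values of these genes therefore rest mostly on 1 condition each. Atf3 was most like Plekhb2 (r = 0.995), Litaf (0.994) and Rnf180 (0.992). The order of Atf3 levels ran from IL-13, IFN-γ-primed LPS at 4 h, IL-4 and 1 h, whose neighbours overlapped in their samples, through control, 12 h and 24 h to RAW264.7, with no overlap between neighbours from 1 h downward.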

How the data were processed

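RNA-seq counts of 25 samples were analysed. Per the labels and the paper's methods, the authors used Trimmomatic 0.33 and then STAR 2.5.1 on mm10, and deposited raw read counts per gene, unstranded and for each strand, without normalization (the annotation release is not given in the sources used here). The counts on the sense strand were used, whose total was 93.9 to 158 times that of the other strand. Rn45s and the rows for reads on no gene were left out. Reads on no gene feature made up 62.7% to 69.1% of those on a gene, ambiguous or on none.

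Counts were filtered with filterByExpr, TMM-normalized and fitted with edgeR 4.0.16 in R 4.3.3 (robust quasi-likelihood, 1 mean per group), with Benjamini-Hochberg adjustment over all genes of each comparison. Separate fits held the time course (15 samples), control with IL-4 and IL-13 (9), the 12 h groups (9), RAW264.7 (4) and both cell sources at 4 h (10). The printed CPM use TMM factors over all 25 samples, except the marker sums and the values named as before TMM scaling. Standard errors were obtained by dividing the size of the log2 fold change by √F. Intervals cover counting error only. Exon lengths and positions are from GENCODE M21. Alternatives were DESeq2 1.42.0, RLE size factors, no filter, Rn45s kept, unstranded counts, 1 fit of all samples, the replicate block, other fold cutoffs, each sample left out and, added after seeing the data, library size without TMM. The code was tested on simulated data.

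The members and lists were chosen with earlier results of these data known. Named were every member, up to 4 genes per list with the largest called change against control and a mean of at least 5 CPM, and for each member the 3 genes with the highest r. Same-numbered samples did not deviate together (r -0.0378 to 0.113 between BMDM samples), and replicates were not duplicates.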

Additional observations from a re-analysis of the deposited data

Results flagged for a closer look

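The 4 h response differed between RAW264.7 with LPS and BMDMs with IFN-γ-primed LPS, by the test of the difference itself, for 4 genes past both cutoffs. The log2 differences were 4.62 for Fos, 1.61 for Fosl2, 1.96 for Jun and 1.37 for Jund. That of Junb, -0.54, passed the FDR but not the fold cutoff, and with library size alone it was -0.11 (adjusted p = 0.529). Cell source and IFN-γ cannot be told apart in them.

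Counts on the strand opposite to a gene were not used above. For Junb they came to 14 at 1 h and 14 at 4 h of IFN-γ-primed LPS, against 1 in control BMDMs, above the upper limits of 6.19 and 5.44 that the control count allows at those depths. For Atf3 they came to 7 at 1 h against 1 in control, with a limit of 6.19. The limits scale the control count by depth alone, whereas the sense counts of Junb were 1057 in control, 12999 at 1 h and 5104 at 4 h, and those of Atf3 1657 in control and 2098 at 1 h. Of the counts on both strands, the antisense counts of Junb made up 0.0945% in control, 0.108% at 1 h and 0.274% at 4 h, and those of Atf3 0.0603% in control and 0.332% at 1 h. The shares in control rest on 1 count each.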

How the results depend on the processing

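Of 39 called member changes, none reversed in any alternative and 12 lost the call in at least 1. DESeq2, RLE size factors, Rn45s kept and unstranded counts changed no call among the members tested. The replicate block changed no call either (4 genes higher at 1 h with the replicate block, as without it). Replicate numbers mark no stated shared batch, and same-numbered samples did not deviate together.

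Library size without TMM shifted the median log2 fold change of all genes at 4 h to -0.61 from -0.07, and at 1, 12 and 24 h to -0.22, -0.34 and -0.20, in RAW264.7 to -0.18. The genes higher and lower went from 1537 and 1692 to 1055 and 3142 at 4 h, from 714 and 463 to 578 and 733 at 1 h, from 1271 and 1350 to 963 and 2052 at 12 h, from 1172 and 1139 to 933 and 1572 at 24 h, and in RAW264.7 from 547 and 494 to 452 and 756. They went from 1222 and 1165 to 893 and 1920 at 12 h against IL-4, from 1201 and 1168 to 884 and 1982 against IL-13, from 1089 and 1125 to 750 and 1879 from 1 to 4 h, from 893 and 878 to 1296 and 606 from 4 to 12 h, and from 137 and 227 to 196 and 183 from 12 to 24 h. Between the controls they went from 2334 and 2556 to 2977 and 2092, and in the response difference from 901 and 1174 to 1798 and 741. At 1 h this scaling left 1 member higher (Junb), with Fos at 1.00, Fosl2 at 0.89 and Jun at 0.88. From 1 to 4 h it also called Junb lower (-1.15). From 4 to 12 h it called 1 higher (Fos, 2.71) and 1 lower, with Atf3 at -0.94. At 12 h against IL-4 and IL-13 it called 0 higher, and Fos lower against IL-4 (-1.41). In the response difference it also called Fosl1 and Atf3 higher, and Junb no longer passed the FDR (-0.11).

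With no fold cutoff, 5 members were higher and none lower at 1 h (1409 and 1080 of all 9568 genes). At 4 h it was 2 and 3 (2486 and 2446), at 12 h 1 and 4 (2289 and 2236). At 24 h it was 1 and 3 (2286 and 2041). From 1 to 4 h none was higher and 4 were lower (1895 and 1823). From 4 to 12 h it was 1 and 3 (1596 and 1841), from 12 to 24 h 1 and 1 (508 and 852). With IL-4, 1 was higher and none lower, with IL-13 3 and 1. At 12 h it was 1 and 3 against IL-4, and 1 and 4 against IL-13. Between the controls 6 were lower, and in the response difference 4 were higher and 1 lower. Counts of all genes are not given for these last comparisons. At a log2 fold change of at least 2, 2 members were higher in RAW264.7, again with no count of all genes given. Without a filter, and with all 25 samples in 1 fit, 1 was higher from 4 to 12 h (Fos, 2.53 and 2.52). Without a filter Fosb, otherwise not tested, was called higher at 1 h and lower from 1 to 4 h.

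When single samples were left out, the members called higher were 3 to 4 at 1 h and 0 to 1 from 4 to 12 h. Those called lower were 2 to 3 at 24 h and from 4 to 12 h, 0 to 1 with IL-4, 0 to 1 with IL-13 and 1 to 3 at 12 h against IL-4, and those higher in the response difference 4 to 5. Fos from 4 to 12 h was called without the second control (2.52), the third control (2.52), the third sample at 1 h (2.5) or the second at 12 h (2.79). Without the second control, Fos with IL-4 (-1.02) and Fosl1 in the response difference (3.42) were called. In that difference Fosl1 ran from 1.72 to 3.42 and Fos, always called, from 4.03 to 5.53. Fos against IL-4 at 12 h was called without the third 12 h sample (-1.51), and Jund from 4 to 12 h without the second (-1.01).

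Signs turned only for changes that were not called, among them Atf3 at 4 h, which had passed the FDR (0.51). Jund at 1 h was 0.016 without a filter, 0.012 unstranded, 0.013 with all samples and -0.072 to 0.079 with a sample left out. With library size alone, Jund and Atf3 at 4 h were -0.28 and -0.019, Fosl2 at 12 h was -0.30, Jund and Atf3 from 1 to 4 h were -0.07 and -0.20, Jun from 4 to 12 h was 0.069, Junb from 12 to 24 h was 0.038 and Jund between the cytokines was 0.021. With a sample left out, Fosl2 at 12 h ran from -0.058 to 0.091, Jun from 4 to 12 h from -0.36 to 0.012, Fos and Junb from 12 to 24 h from -0.0055 to 0.70 and from -0.11 to 0.00075, Junb and Jund between the cytokines from -0.14 to 0.072 and from -0.050 to 0.054, and Fos and Jun in RAW264.7 from -0.085 to 0.76 and from -0.13 to 0.051. The causes were not tested. Fos, Fosb and Fosl1 are limited by depth, and groups of 2 or 3 samples by their number.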
